A study of Mus musculus with 7 samples.

Results

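The immediate early transcription factor genes described here are Fos, Fosb, Jun, Junb and Jund, which encode subunits of the AP-1 factor, Egr1, Egr2 and Egr3, which encode zinc-finger factors of the EGR family, and the companion genes Ier2 and Atf3. These 10 genes were taken by symbol from the 27179 genes in the count files, after Entrez identifiers had been matched to RefSeq symbols. They were measured in CD8 dendritic cells of C57BL/6 mice, purified by fluorescence-activated cell sorting and split by their surface level of CD103, the integrin αE chain. The groups were CpG CD103 high (n = 2), labelled CD103 high and CpG treated, CD103 low (n = 2) and CD103 negative (n = 3), both labelled untreated. CpG DNA is a ligand of Toll-like receptor 9, and the title of the series names paralysed dendritic cells after systemic inflammation. Both CpG CD103 high libraries and CD103 negative replicates 1 and 2 were dated 2012, and both CD103 low libraries and CD103 negative replicate 3 were dated 2013. Every CpG-treated sample was also CD103 high, so treatment and CD103 level cannot be told apart. The tissue, the age of the mice, the CpG dose, the time after treatment and how cells were released from tissue were not stated in the sources at hand.

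Immediate early genes are transcribed within minutes of a stimulus from factors that are already present in the cell, such as serum response factor with its ternary complex partners and CREB-type factors, and their transcripts are short-lived. FOS proteins must pair with a JUN protein to bind DNA, whereas JUN proteins can also pair with each other and with ATF or BATF proteins. EGR factors bind GC-rich elements and are restrained by the NAB corepressors. Besides receptor signals, the handling of cells during tissue digestion and sorting is known to induce this set of genes.

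Promoter sequence is shown for Jun and Fos, because Jun passed the test in the treated cells and Fos did not. The stretches are the 250 bases before the annotated start in RefSeq on build GRCm38.p6, 5′ to 3′ on the strand of the gene, for Jun at chr4:95052223-95052472 on the minus strand and for Fos at chr12:85473640-85473889 on the plus strand. Capitals mark matches to TGACG, the core of the cyclic AMP response element (CRE), or to TGANNTCA, the 8-base AP-1 and CRE spacing, on either strand.
Jun: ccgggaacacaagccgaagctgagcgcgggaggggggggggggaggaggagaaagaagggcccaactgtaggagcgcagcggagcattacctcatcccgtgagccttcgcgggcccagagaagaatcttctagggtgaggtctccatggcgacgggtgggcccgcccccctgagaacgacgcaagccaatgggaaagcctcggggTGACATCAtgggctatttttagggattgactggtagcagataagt
Fos: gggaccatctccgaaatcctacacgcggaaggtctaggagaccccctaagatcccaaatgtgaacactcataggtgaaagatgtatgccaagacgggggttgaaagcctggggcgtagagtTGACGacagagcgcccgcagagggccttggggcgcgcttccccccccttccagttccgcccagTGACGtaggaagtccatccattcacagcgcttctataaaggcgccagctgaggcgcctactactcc
The Jun stretch held 1 match, TGACATCA, which begins 45 bases before the start, and no TGACG. The Fos stretch held TGACG beginning 129 and 66 bases before the start, and a TATAAA beginning 33 bases before it. RefSeq windows were matched for 7 of the 10 genes, 11 windows in all. Egr1, Egr3 and Ier2 had no window and were not searched, and for the others no element beyond 250 bases before the start was searched. TGACG was present in 7 of those 11 windows, in Fos, Fosb, Junb, Egr2 and Atf3, of which 3 are overlapping Egr2 windows that share the same matches, and in 17.8% of 32851 windows of the same length over all genes. TGANNTCA was found in the windows of Jun and Jund and in 11.9% of all windows. A CArG box, the element of serum response factor, was found in 4 windows, all of Egr2, of which the same 3 share 1 match, and in 1.47% of all windows. The EGR element GCGNGGGCG occurred in the Fosb window and in 4.70% of all windows. The full CRE TGACGTCA and the AP-1 element TGANTCA were in none of the 11 windows. A full CRE would match both the TGACG and the TGANNTCA search. A match in these windows is a description of the letters and says nothing of binding.

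The libraries held between 4474211 and 4629181 counts. Levels are given as CPM, the counts of a gene scaled to a library of 1000000 counts after TMM normalisation (trimmed mean of M-values). Every one of the 10 genes had at least 71 counts in every library, and all 10 passed the filter on low counts. Markers of the sorted subset were strong in each library, with Cd8a between 1207 and 1484 CPM and Xcr1 between 1323 and 2515 CPM. They were not all level between groups. Of 10 markers of this subset (cDC1), 6 were called higher and 0 lower in CpG CD103 high over CD103 negative cells by edgeR. Xcr1 was among the 6 and Cd8a was not. The median log2 fold change of the 10 markers was 0.545, and 14.5% of all genes tested were called higher. CD103 negative replicate 1 stood apart for the genes described here: it held the highest level of 9 of the 10. Summed over the 10 genes, the level was 6585 and 5341 CPM in CpG CD103 high replicates 1 and 2, 3159 and 6095 CPM in CD103 low replicates 1 and 2, and 10890, 5975 and 3623 CPM in CD103 negative replicates 1, 2 and 3. The sum was thus highest and lowest among untreated libraries, with both CpG CD103 high libraries inside their range.

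**Figure D1:**
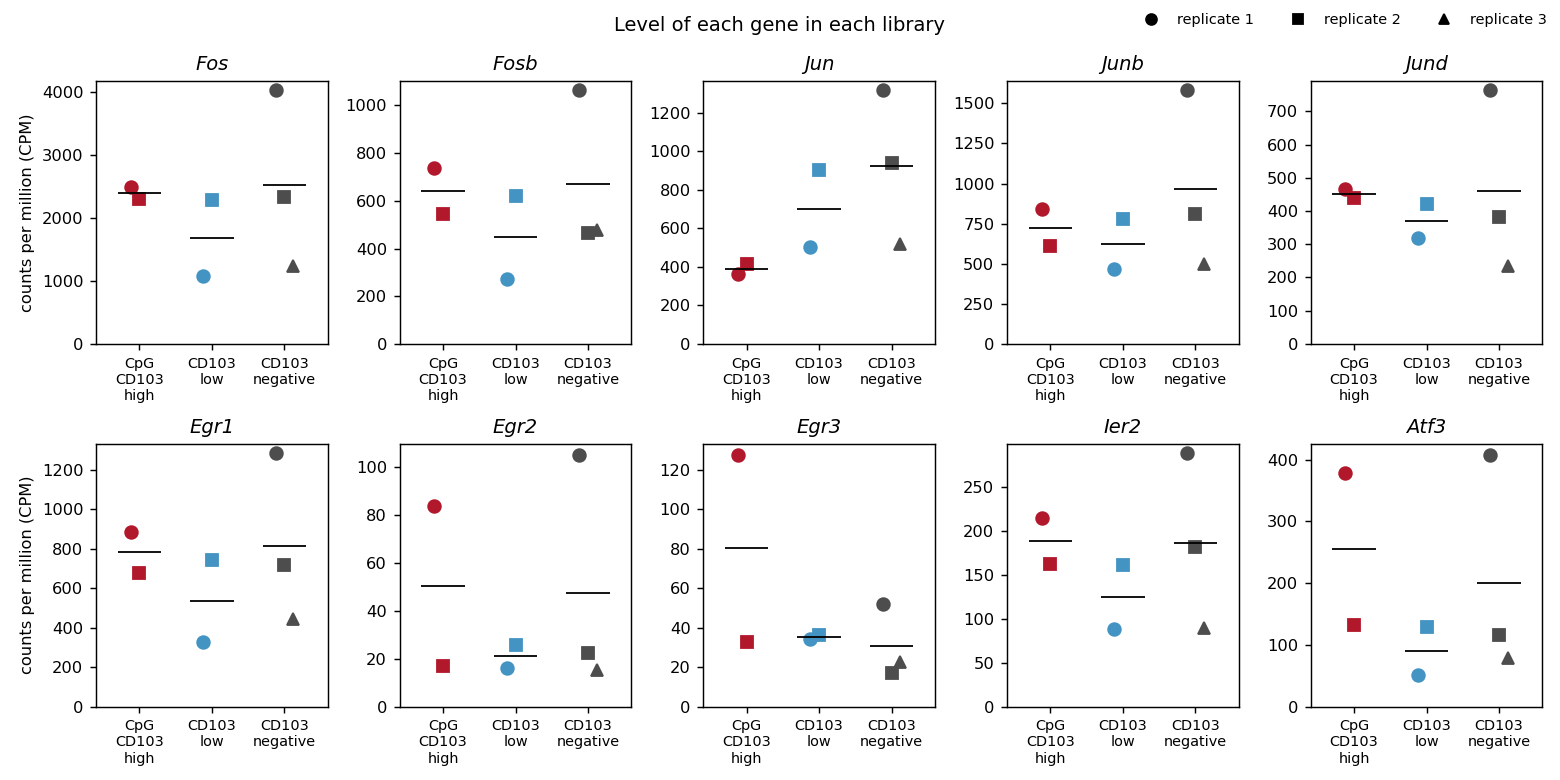
Level of each of the 10 genes in each library, in CPM on a linear axis from 0, with a horizontal bar at the group mean and 1 symbol shape per replicate number. Of the 10, Jun alone has both CpG CD103 high libraries below all 5 untreated ones, at 362.7 and 415.3 CPM, which 17.6% of all genes tested also have, while CD103 negative replicate 1 is the highest library for 9 of the 10 genes.

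Jun, the founding JUN subunit and the member that forms the strongest activating dimers with FOS, was lower in CpG CD103 high cells. Its level was 362.7 and 415.3 CPM in CpG CD103 high replicates 1 and 2, against 505.4 and 901.6 CPM in CD103 low cells and 1318, 938.8 and 521.7 CPM in CD103 negative cells. Both treated libraries lay below all 5 untreated libraries, a separation that 17.6% of all genes tested also showed. The nearest untreated ones, CD103 low replicate 1 and CD103 negative replicate 3, were both dated 2013. Group means were 389 ± 37.2 CPM in CpG CD103 high (SD, n = 2), 704 ± 280 in CD103 low (n = 2) and 926 ± 399 in CD103 negative (n = 3). Over CD103 negative cells, with the date as a term, Jun fell by 1.54 log2 units (SE 0.24; edgeR's quasi-likelihood test with Benjamini-Hochberg adjustment over 10863 genes, adjusted p 0.00143). Within the 2012 libraries alone the value was -1.54 (edgeR adjusted p 0.00116). That is a repeat and not added support, since with the date term the comparison already rests on those libraries. Fits without a CD103 low library repeat it in the same way. Among the 10 genes Jun was the one called in this comparison, where 26.3% of all genes tested were called, 14.5% higher and 11.8% lower. The adjusted p of Jun stayed under 0.05 in all alternatives tried for this comparison and came closest to it without the date term (log2 fold change -1.25, adjusted p 0.0477).

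Over CD103 low cells Jun also had a lower fitted level (log2 fold change -1.97, SE 0.38, edgeR adjusted p 0.0182), which was called. That value is the difference of each group's distance to the CD103 negative libraries of its own date, and is larger than the plain ratio of the levels. Jun lost this call when the date was left out of the model (-0.86, adjusted p 0.218), without CD103 negative replicate 1 (-1.70, adjusted p 0.0584) and with no filter on low counts (-1.97, adjusted p 0.0681). In this comparison 1 of the 10 genes was called, against 6.22% of all genes.

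Jun also made up a smaller part of its own family, and stood lower relative to Fos, in both treated libraries. As a share of the summed level per kilobase of Jun, Junb and Jund, Jun made up 15.6% and 21.2% in CpG CD103 high cells, 30.2% and 33.2% in CD103 low cells, and 26.9%, 34.0% and 31.6% in CD103 negative cells. The ratio of the Jun level to the Fos level, both per kilobase, was 0.0957 and 0.118 in CpG CD103 high cells, 0.308 and 0.260 in CD103 low cells, and 0.215, 0.265 and 0.277 in CD103 negative cells. Neither the Jun share nor the ratio overlapped between treated and untreated libraries, and neither was tested, since both were chosen after the levels had been seen. Jun was picked for its low level, so they are not separate support for it. The Jund share did not overlap either and was higher in CpG CD103 high cells, at 22.1% and 24.8% against at most 21.1% in untreated cells. How often shares or ratios of other genes part the libraries was not counted. CD103 negative replicate 1, whose Jun and Fos levels were both the highest, had the lowest ratio and the lowest Jun share of the untreated libraries. A ratio shows that Jun and Fos changed unequally and not which of them was stable.

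**Figure D2:**
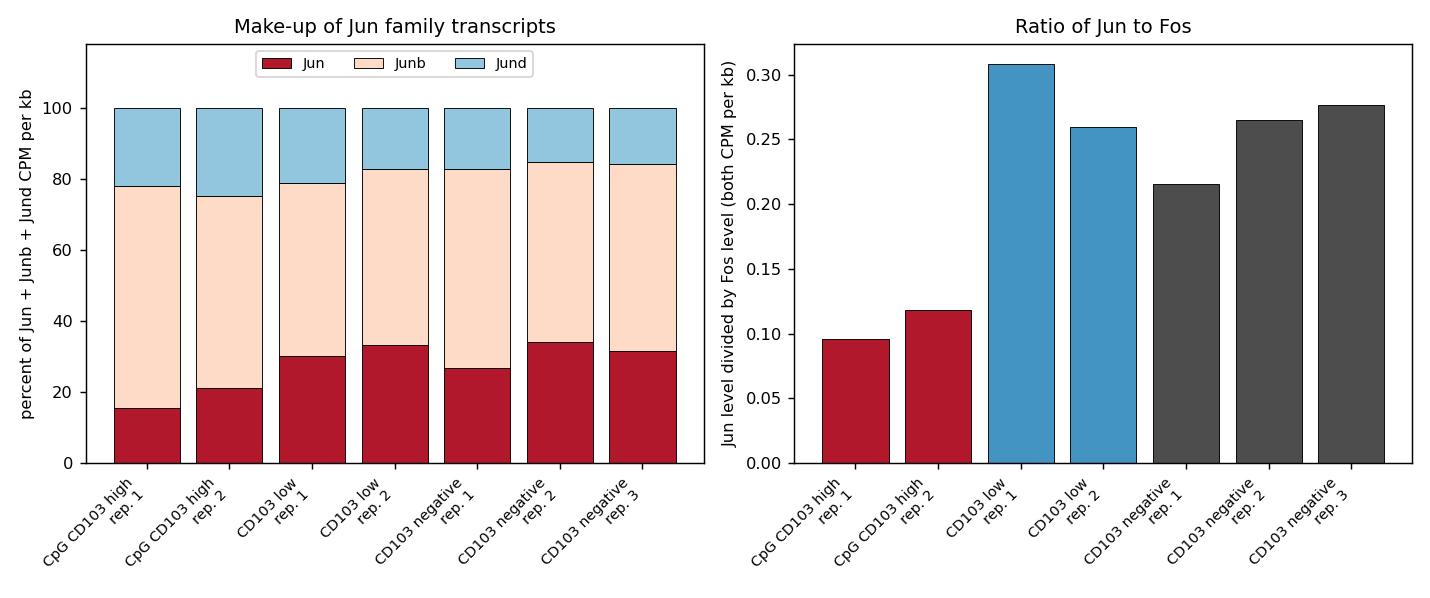
Left, the percent of the summed CPM per kb of Jun, Junb and Jund that each gene makes up in each library. Right, the Jun level divided by the Fos level in each library, both in CPM per kb. Jun makes up 15.6% and 21.2% in the CpG CD103 high libraries and at least 26.9% in the untreated ones, and the ratio is 0.0957 and 0.118 against at least 0.215. Jund makes up 22.1% and 24.8% in the CpG CD103 high libraries and at most 21.1% in the untreated ones.

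Junb, which forms weaker activating dimers and can oppose Jun, measured 839.3 and 611.8 CPM in CpG CD103 high cells, 469.1 and 777.4 CPM in CD103 low cells and 1583, 808.8 and 500.4 CPM in CD103 negative cells. The 3 groups overlapped. Junb was not called in CpG CD103 high over CD103 negative cells (log2 fold change -0.72, SE 0.30, edgeR adjusted p 0.102), and it was called there without CD103 negative replicate 2 (-1.13, adjusted p 0.0206). Jund, the subunit with the steadiest expression in resting cells of many kinds, measured 465.0 and 438.6 CPM in CpG CD103 high cells, 319.0 and 421.6 CPM in CD103 low cells and 764.5, 380.5 and 236.0 CPM in CD103 negative cells. Its treated libraries lay between the extremes of the CD103 negative ones (log2 fold change -0.34, SE 0.25, edgeR adjusted p 0.350). Without CD103 negative replicate 2, which leaves replicate 1 as the control of that date, Jund too was called (-0.76, adjusted p 0.0113).

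Fos, the leading FOS subunit, was the most abundant of the set per kilobase. It measured 2490 and 2306 CPM in CpG CD103 high cells, 1077 and 2279 CPM in CD103 low cells and 4023, 2326 and 1239 CPM in CD103 negative cells. Both treated libraries lay close to CD103 low replicate 2 and CD103 negative replicate 2. The log2 fold change of CpG CD103 high over CD103 negative was -0.41 (SE 0.31, edgeR adjusted p 0.359), and without CD103 negative replicate 1 it was 0.04. Fosb, a close relative that also yields a shortened, long-lived isoform by splicing, measured 736.6 and 545.5 CPM in CpG CD103 high cells, 274.3 and 620.2 CPM in CD103 low cells and 1063, 467.1 and 477.2 CPM in CD103 negative cells. Its groups overlapped as well (log2 fold change -0.26, SE 0.39, edgeR adjusted p 0.663). Counts per gene do not part its isoforms.

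Egr1, the best known factor of its family and a target of MAP kinase signalling, measured 886.1 and 679.5 CPM in CpG CD103 high cells, 325.1 and 743.6 CPM in CD103 low cells and 1284, 717.6 and 442.5 CPM in CD103 negative cells. Treated libraries lay within the untreated range (log2 fold change over CD103 negative -0.35, SE 0.34, edgeR adjusted p 0.475). Egr2, which together with Egr3 is known for limiting T cell activation, measured 83.6 and 16.8 CPM in CpG CD103 high cells, 16.1 and 25.8 CPM in CD103 low cells and 105, 22.2 and 15.3 CPM in CD103 negative cells. CpG CD103 high replicate 1 and CD103 negative replicate 1 held high levels and the other 5 libraries low ones, so the level did not part the groups (-0.34, SE 0.68, edgeR adjusted p 0.749). The lncRNA gene Gm32255 overlaps Egr2 in the RefSeq annotation and is not among the counted genes. Without a stated strand setting, reads of that stretch could not be assigned to one or the other.

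Egr3 was the one gene of the set with a positive fitted change in CpG CD103 high over CD103 negative cells. It measured 127.8 and 32.7 CPM in CpG CD103 high cells, 34.3 and 36.3 CPM in CD103 low cells and 52.0, 17.03 and 22.8 CPM in CD103 negative cells. CpG CD103 high replicate 1 was the highest library, while replicate 2 lay below both CD103 low libraries. The log2 fold change was 1.22 (SE 0.56, edgeR adjusted p 0.134). It was 1.88 without CpG CD103 high replicate 2 (adjusted p 0.0114) and -0.08 without CpG CD103 high replicate 1 (adjusted p 0.925), so 1 library decides this value. The levels of Egr3 per kilobase were 22.2% and 9.24% of the summed Egr1, Egr2 and Egr3 level in CpG CD103 high cells, 17.9% and 9.28% in CD103 low cells, and 7.50%, 4.75% and 9.73% in CD103 negative cells.

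Ier2, a small nuclear protein of the immediate early response, measured 215.0 and 162.7 CPM in CpG CD103 high cells, 88.3 and 161.6 CPM in CD103 low cells and 289.0, 181.3 and 89.6 CPM in CD103 negative cells, so that the 7 libraries stood in the same order as for Fos. Atf3, a stress-induced factor that restrains Toll-like receptor responses in macrophages, measured 378.9 and 132.0 CPM in CpG CD103 high cells, 50.6 and 128.5 CPM in CD103 low cells and 407.7, 115.5 and 79.0 CPM in CD103 negative cells. Its highest libraries were those of Egr2, 1 treated and 1 untreated. Neither gene was called in CpG CD103 high over CD103 negative cells, with log2 fold changes of -0.32 (SE 0.27) and -0.03 (SE 0.58) and edgeR adjusted p of 0.413 and 0.972.

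**Figure D3:**
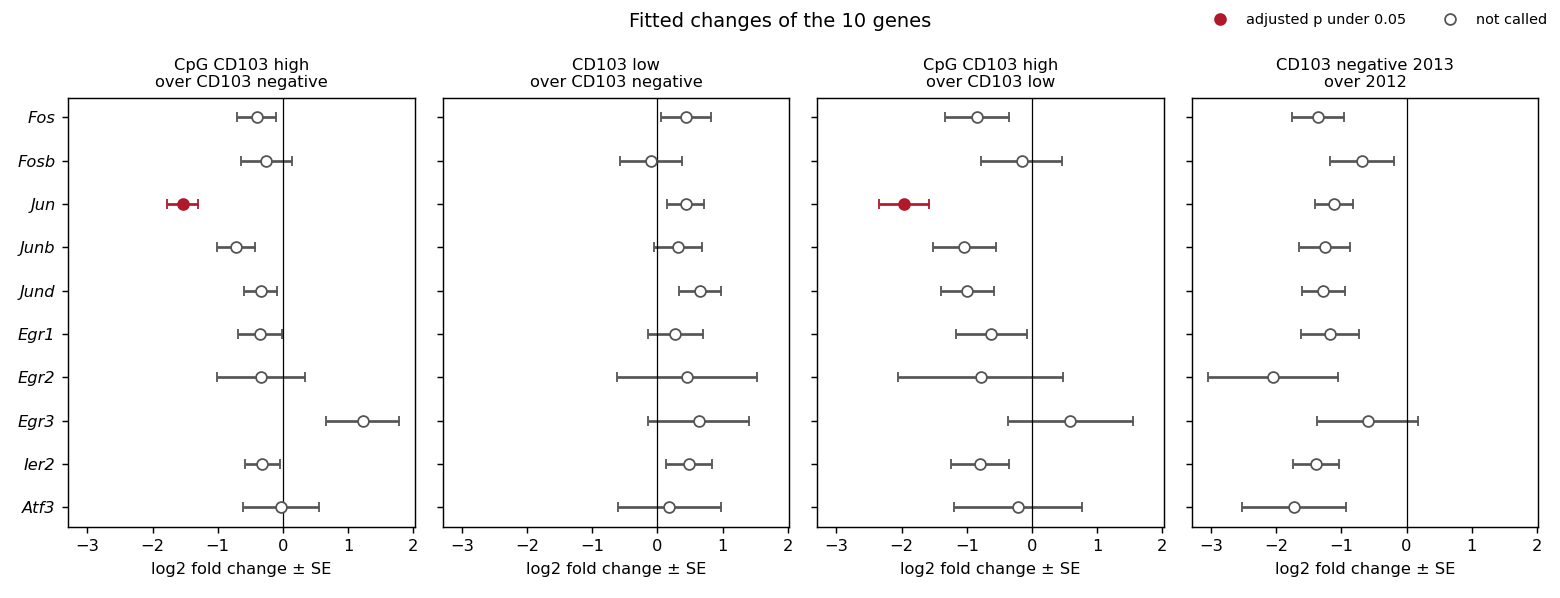
Fitted log2 fold change of each gene with its SE as a horizontal bar, in 4 panels for the 4 comparisons. Filled red points passed an adjusted p of 0.05: Jun at -1.54 in CpG CD103 high over CD103 negative and at -1.97 in CpG CD103 high over CD103 low. In the panel by date all 10 points lie left of 0 and none is called.

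Read as a set, 9 of the 10 genes had a negative fitted change in CpG CD103 high over CD103 negative, with a median of -0.34 beside -0.01 over all genes tested, and 2 had an unadjusted p under 0.05 (Jun and Junb), fewer than the 39.1% of all genes tested. That sign rests on CD103 negative replicate 1. Without it Jun, Junb and no other gene of the set stayed negative, as Fos, Fosb, Jund, Egr1, Egr2, Ier2 and Atf3 turned positive, while Jun kept its call (-1.27, adjusted p 0.0145). The SE of the 10 genes in this comparison ran from 0.24 to 0.68 with a median of 0.32, against a median of 0.13 over the 7276 genes whose average log2 CPM was 4 or more, so a change had to be larger to be called here than for most genes.

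No gene of the set was called in CD103 low over CD103 negative cells. By edgeR 0 of the 10 had an adjusted or an unadjusted p under 0.05, against 0.138% of all genes called and 7.34% at an unadjusted p under 0.05, and DESeq2 and limma voom also called 0. Of the 10, 9 had a positive fitted change, with a median of 0.43 beside 0.01 over all genes. With the date term CD103 low is set against CD103 negative replicate 3 alone. Its summed level of the set, 3623 CPM, was the lowest of the CD103 negative libraries, though Fosb and Egr3 were lower in CD103 negative replicate 2. The highest value was that of Jund (0.65, SE 0.32, edgeR adjusted p 0.734), which was called when the 2013 libraries were fitted alone (0.64, adjusted p 0.000184, on 1 residual degree of freedom). With no date term, 8 of the 9 positive changes turned negative, Fos to -0.59 and Jun to -0.40.

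In CpG CD103 high over CD103 low cells 9 of the 10 genes were fitted lower, Jun called and 2 at an unadjusted p under 0.05 (Jun and Jund), near the 23.5% of all genes. Jund was called without CD103 negative replicate 2 (-1.41, adjusted p 0.0126). The plain levels ran the other way for most: with no date term Fos stood at 0.52, Egr1 at 0.55, Ier2 at 0.60 and Atf3 at 1.51 on the log2 scale, none called, while Jun stayed negative at -0.86. The comparisons share the CD103 negative libraries, so their signs are not independent of one another.

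By date, CD103 negative replicate 3 of 2013 was lower than replicates 1 and 2 of 2012 in the fitted value of all 10 genes, with log2 fold changes from -2.05 (Egr2) to -0.60 (Egr3) and a median of -1.27, beside 0.01 over all genes. No gene was called by edgeR (lowest adjusted p 0.0615, Ier2), DESeq2 or limma voom, where edgeR called 3.46% of all genes. At an unadjusted p under 0.05 there were 6 of the 10, against 20.4% of all genes. Ier2 was called without either CpG CD103 high library (adjusted p 0.0432 and 0.0491), Jun without either CD103 low library (0.0487 and 0.0481) and Jund without CD103 negative replicate 2 (0.00696). The fitted date difference rests on the CD103 negative libraries alone, since each other group carried 1 date. Leaving out a CpG CD103 high or CD103 low library changes mainly the shared estimate of spread. The Ier2 and Jun calls gained in that way are therefore not added support for a date difference. For Fosb and Egr3 the difference rests on CD103 negative replicate 1. Replicates 3 and 2 stood at 477.2 and 467.1 CPM of Fosb, and at 22.8 and 17.03 CPM of Egr3. The date and the library cannot be told apart here, because 1 CD103 negative library carried the later date. That library, also the control of CD103 low, differed in cell markers as well. Of those tested by date, 2 of 4 plasmacytoid, 1 of 4 cDC2 and 1 of 5 macrophage and monocyte markers were called higher. No B cell, erythroid, neutrophil or cDC1 marker was called by date. The part of other cells in the date difference was not tested.

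Libraries of 1 group and date differed by more for these genes than for most. CD103 negative replicate 1 exceeded replicate 2 for all 10 genes, from 1.404-fold for Jun to 4.74-fold for Egr2, and all 10 lay beyond the difference that 95% of the 7276 abundant genes stayed within. CD103 low replicate 2 exceeded replicate 1 for all 10, from 1.06-fold for Egr3 to 2.54-fold for Atf3, and 9 lay beyond that limit. Between the CpG CD103 high libraries, replicate 1 was the higher one for 9, with Egr2, Egr3 and Atf3 beyond the limit at 4.98-, 3.91- and 2.87-fold, and Jun the exception at 0.874-fold. The median absolute log2 difference of the 10 genes was 0.42, 0.85 and 0.99 within the CpG CD103 high, CD103 low and CD103 negative pair, against 0.14, 0.11 and 0.13 over the abundant genes.

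The genes varied together across the 7 libraries. As a description over 7 libraries that share depth, scaling and group structure, the median Pearson correlation of log2 CPM over the 45 pairs of genes was 0.83. Fos, Egr1 and Ier2 were the tightest group, at 0.99 for Fos with Egr1 and 0.98 for Fos with Ier2. Egr2 went with Atf3 (0.94). Jun and Egr3 were the loosest, and they were the one pair with a negative value (-0.32). Jun with Fos stood at 0.52 and Jun with Junb at 0.68.

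Per kilobase, averaged over the 7 libraries, Fos led at 1074 CPM per kb, ahead of Junb at 434 and Egr1 at 236. Jun followed at 222.5, Fosb at 158, Jund at 150, Ier2 at 111.5, Atf3 at 93.4, Egr3 at 32.6 and Egr2 at 13.7. Fos was above Junb, Junb above Egr1, Jund above Ier2, Atf3 above Egr3 and Egr3 above Egr2 in 7 of 7 libraries. The order of Egr1 and Jun (Egr1 higher in 3 of 7), of Jun and Fosb (5 of 7), of Fosb and Jund (4 of 7) and of Ier2 and Atf3 (5 of 7) changed with the library.

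Among 7266 other genes whose average log2 CPM was 4 or more, the pattern most like the mean standardised level of the 10 genes was that of Ccrl2, an atypical chemokine receptor (Pearson correlation 0.98 over 7 libraries). It measured 33.7 and 15.5 CPM in CpG CD103 high cells, 10.4 and 24.4 CPM in CD103 low cells and 54.9, 15.3 and 11.5 CPM in CD103 negative cells. Others of closely like pattern were Eral1, a GTPase that assembles the small mitochondrial ribosomal subunit (0.96), Rraga, a GTPase of amino acid sensing (0.96), and Ppp1r15a, the stress-induced phosphatase subunit GADD34 (0.95). Their high correlations are how they were picked from 7266 genes over 7 libraries, and are no test. A correlation also leaves out the size of change: Eral1 ran from 17.5 to 25.0 CPM and Rraga from 113 to 154 CPM, against 134 to 399 CPM for Ppp1r15a.

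Of 41 other immediate early genes that passed the filter, 8 fell and 1 rose in CpG CD103 high over CD103 negative cells, with a median log2 fold change of -0.37 beside -0.01 over all genes, of which 11.8% fell and 14.5% rose. Arc, known from neurons and expressed in migratory dendritic cells, fell to 3.99 and 6.05 CPM in CpG CD103 high cells, against 28.5, 30.2 and 28.9 CPM in CD103 negative cells (-2.54, SE 0.20, edgeR adjusted p 4.88e-05). It stood at 25.9 and 26.2 CPM in CD103 low cells and thus differed little among the 5 untreated libraries, unlike the AP-1 and EGR genes. Gadd45b, an activator of stress kinase signalling, fell by 1.52 (SE 0.17) and Plk2, a polo-like kinase, by 2.68 on the log2 scale (SE 0.47). Dusp2, a phosphatase that inactivates MAP kinases, fell by 0.84, Nfkbia, the NF-kB inhibitor IkB alpha, by 0.79 and Rhob, a small GTPase, by 1.15 on the log2 scale, with edgeR adjusted p of 0.0100, 0.0196 and 0.0269. Summed over all 45 listed genes, the level was 10480 and 6915 CPM in CpG CD103 high cells, 7006 and 9846 CPM in CD103 low cells and 15320, 7975 and 7072 CPM in CD103 negative cells, with CD103 negative replicate 1 again the highest.

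**Figure D4:**
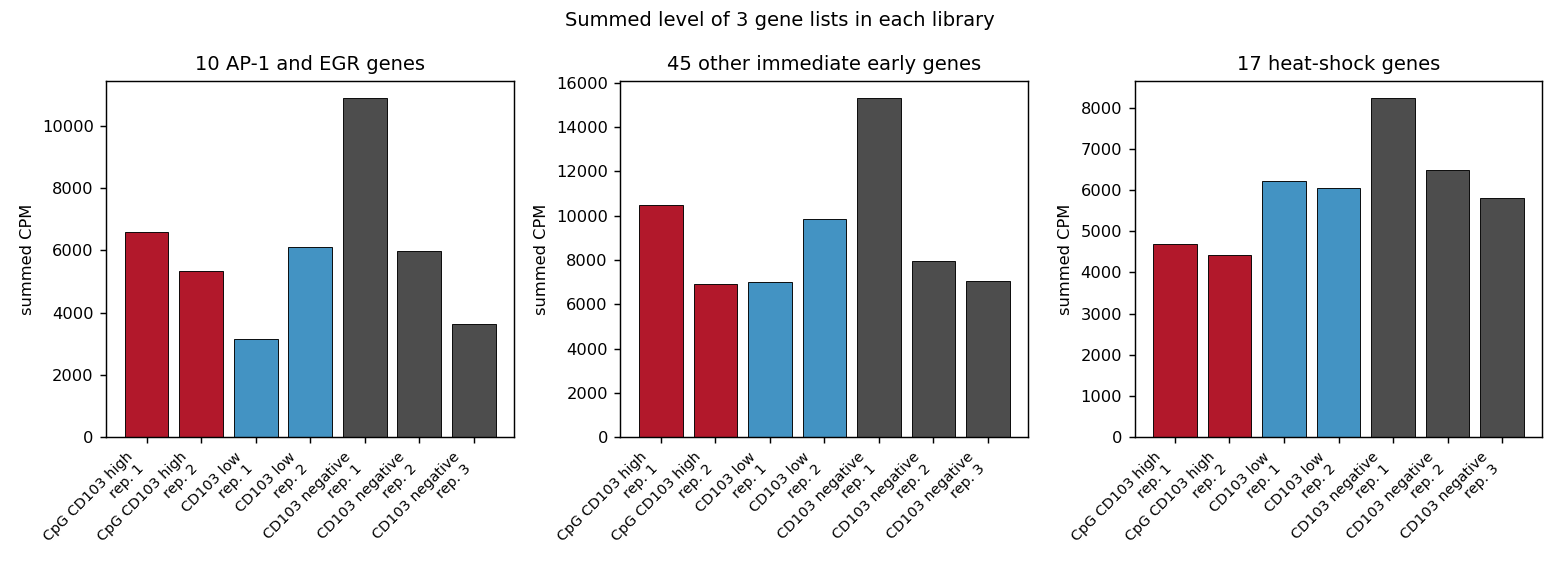
Summed CPM, on linear axes from 0, of the 10 AP-1 and EGR genes, of 45 other immediate early genes and of 17 heat-shock genes in each library. CD103 negative replicate 1 is the highest library in all 3 panels, at 10890, 15320 and 8235 CPM, and the heat-shock sum of both CpG CD103 high libraries lies below that of every untreated library.

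Inducible heat-shock genes also answer to stress during cell handling. Of 16 heat-shock genes that passed the filter, 8 fell and 0 rose in CpG CD103 high over CD103 negative cells, with a median of -0.35, where 11.8% of all genes fell. The other 8 were not called, among them the constitutive chaperone gene Hspa8 (-0.06, edgeR adjusted p 0.751) and Hsf1, the heat-shock transcription factor (-0.03, edgeR adjusted p 0.859). The chaperone gene Hsp90aa1 measured 81.0 and 81.3 CPM in CpG CD103 high cells, 100 and 105 CPM in CD103 low cells and 167, 145 and 110 CPM in CD103 negative cells (-0.94, SE 0.10, edgeR adjusted p 0.000225), and the cochaperone gene Dnajb1 fell by 1.65 on the log2 scale (SE 0.33). Hspa1a and Hspa1b, near-identical copies whose reads could be split between them, measured 8.43 and 34.3 CPM and 11.98 and 35.6 CPM in CpG CD103 high cells. The untreated libraries held at least 332 CPM of each. The summed level of the heat-shock list was 4694 and 4429 CPM in CpG CD103 high cells, 6207 and 6059 CPM in CD103 low cells and 8235, 6495 and 5808 CPM in CD103 negative cells. The heat-shock sum thus parted treated from untreated libraries as Jun did and as the Fos, Egr1 and Ier2 levels did not. Much of the gap in the sum comes from Hspa1a and Hspa1b. Of all single genes tested, 17.6% also had both CpG CD103 high libraries below all untreated ones. The part of the heat-shock genes in the Jun result was not tested.

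Of the other AP-1 and related basic leucine zipper genes 5 rose and 1 fell among 25, with a median of 0.01, so that the share called was close to the 26.3% over all genes. Creb3, a membrane-bound factor of secretory stress, rose to 87.6 and 88.7 CPM in CpG CD103 high cells, against 59.3, 58.0 and 59.0 CPM in CD103 negative cells (0.59, SE 0.10, edgeR adjusted p 0.00242). Batf2, an interferon-induced partner of JUN proteins, rose by 1.84 (SE 0.37) and Jdp2, a repressor that dimerises with JUN, by 0.90 (SE 0.20). Atf7 and Mafk rose by 0.80 and 0.66 (SE 0.25 and 0.22, edgeR adjusted p 0.0393 and 0.0464), and Cebpa, a myeloid factor, fell by 2.31 on the log2 scale (SE 0.42). Batf3, the JUN partner on which this dendritic cell subset depends, differed little between libraries, from 67.2 to 75.4 CPM, and was named after its values had been seen.

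Among 21 upstream regulators and NAB genes 3 rose and 2 fell in CpG CD103 high over CD103 negative cells, with a median of -0.08 and a share called close to the 26.3% over all genes. Mrtfa, a coactivator of serum response factor, rose by 0.45 (SE 0.09), Elk4, a ternary complex partner of that factor, by 0.74 (SE 0.17) and Map3k8, a kinase that acts downstream of Toll-like receptors, by 0.79 (SE 0.21). Elk3, a partner that can repress, fell by 0.92 on the log2 scale (SE 0.25). In CD103 low over CD103 negative cells no gene of these 4 lists was called by edgeR.

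Some markers of other cell types differed between CpG CD103 high and CD103 negative cells. Of those tested, 3 of 3 B cell markers fell, and 4 of 4 erythroid markers and the 1 neutrophil marker rose. Of the plasmacytoid and cDC2 markers 1 of 4 and 2 of 4 fell, and of 5 macrophage and monocyte markers 1 rose and 1 fell. T cell and NK cell markers did not pass the filter on low counts and were not tested. The 5 B cell markers summed to 11.5 and 13.2 CPM in CpG CD103 high cells, 71.5 and 68.0 CPM in CD103 low cells and 94.0, 76.5 and 82.8 CPM in CD103 negative cells. The 4 neutrophil markers summed to 13.75 and 12.8 CPM in CpG CD103 high cells and 2.59 CPM or less elsewhere, and the 4 erythroid markers to 23.3 and 29.1 CPM against 2.59 to 16.6 CPM. T cell markers summed to 30.1 CPM in CD103 low replicate 2 and to at most 2.73 CPM in the other libraries. The 5 plasmacytoid and the 5 cDC2 markers summed to 165 and 145 CPM and to 20.6 and 12.8 CPM in CpG CD103 high cells, against 133 to 217 CPM and 29.1 to 69.6 CPM in untreated cells, highest in CD103 negative replicate 3. The 7 macrophage and monocyte markers summed to 88.7 and 49.5 CPM in CpG CD103 high cells and 82.8 to 158 CPM in untreated cells, and the 4 NK cell markers to 3.77 and 3.36 CPM against at most 1.70 CPM. The part of these cells in the level of Jun was not tested. In these bulk samples fewer cells with a transcript and less of it per cell cannot be told apart.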

How the data were processed

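The authors deposited, per the file headers, unnormalised whole-number read counts, a file for each sample, next to a gene length in bases. The submitters' processing notes list CASAVA, Subread 1.4.6, featureCounts and the build mm10 without roles, while annotation release, strand setting and multimapped reads go unmentioned there. A series-wide table of 7 count columns, named as no sample is labelled, was left aside.

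RefSeq symbols were found for 25275 of 27179 Entrez identifiers (93.0%). With edgeR 4.0.16 (R 4.3.3), filterByExpr by group kept 10863 genes, libraries were TMM-scaled, and a quasi-likelihood model of group and date was fitted to all 7 libraries with 3 residual degrees of freedom. A call is a Benjamini-Hochberg adjusted p under 0.05 over all genes tested. SE is the log2 fold change divided by the square root of F. The date term makes CD103 negative replicates 1 and 2 the control of CpG CD103 high, and replicate 3 that of CD103 low. CPM per kb uses the deposited length, and correlations use log2 CPM with a prior count of 2. The design text calls the samples biological replicates.

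Genes named from a list are its called members, at most 6 by adjusted p, and cell markers. The genes of most similar pattern are from the 5 of highest correlation. Some genes that these rules select are not reported here. The 10 genes and all lists were chosen with earlier results of these data known. Alternatives were RLE scaling, no filter, a stricter filter (10 counts in 4 libraries), DESeq2 1.42.0, voom of limma 3.58.1, no date term, a replicate block, leaving out each library, and single dates.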

Additional observations from a re-analysis of the deposited data

How the results depend on the processing

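Of the 10 genes, 1 was called in CpG CD103 high over CD103 negative and 1 in CpG CD103 high over CD103 low in the fit with the date, and 0 in the other comparisons. Jun kept its call in the first comparison in all alternatives run, with log2 fold changes from -1.76 to -1.25. The count of called genes there rose to 2 with the replicate block and was 1 to 3 over the fits that leave out a library. In CD103 low over CD103 negative it was 1 with the 2013 libraries alone and 0 in the other fits. In CpG CD103 high over CD103 low it was 0 with no filter on low counts and 0 without the date term, and 0 to 2 when a library was left out. By date it was 0 to 1 when a library was left out. The added call under the block was Egr3 (1.16, adjusted p 0.0341). Of 550 values of single genes under alternatives 453 kept their direction and side of the threshold, 3 lost a call, 11 gained one and 83 changed sign, of which 0 were called.

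Fits without CD103 negative replicate 3 had no date term. The number of all genes called was 2860, 15, 676 and 376 in CpG CD103 high over CD103 negative, CD103 low over CD103 negative, CpG CD103 high over CD103 low and CD103 negative 2013 over 2012. In the first it was 1459 with DESeq2, 1589 without the date term and 1696 at the lowest when a library was left out. In the second it was 1 with no filter, 40 with DESeq2, 290 with 2013 alone, 1175 with the block, and 1 to 1030 when a library was left out. In the third it was 263 with no filter, 382 with DESeq2, 1775 with the block, and 111 to 1667 when a library was left out. In the last it was 103 with no filter, 220 with DESeq2, and 84 to 641 when a library was left out.

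The sign of the uncalled genes depended on the date term. Without it, CpG CD103 high over CD103 negative was 0.083 for Egr2, 0.018 for Ier2 and 0.35 for Atf3, CD103 low over CD103 negative was -0.59 for Fos, -0.40 for Jun, -0.63 for Junb, -0.31 for Jund, -0.61 for Egr1, -1.18 for Egr2, -0.58 for Ier2 and -1.16 for Atf3, and CpG CD103 high over CD103 low was 0.52 for Fos, 0.52 for Fosb, 0.22 for Junb, 0.29 for Jund, 0.55 for Egr1, 1.26 for Egr2, 0.60 for Ier2 and 1.51 for Atf3. With the replicate block in place of the date term, CD103 low over CD103 negative was -0.94 for Fos, -0.72 for Jun, -0.87 for Junb, -0.58 for Jund, -0.90 for Egr1, -1.30 for Egr2, -0.89 for Ier2 and -1.22 for Atf3, and CpG CD103 high over CD103 low was 0.53 for Fos, 0.48 for Fosb, 0.17 for Junb, 0.27 for Jund, 0.54 for Egr1, 0.96 for Egr2, 0.58 for Ier2 and 1.22 for Atf3. With both the date term and CD103 negative replicate 3 left out, CD103 low over CD103 negative was -0.95 for Fos, -0.71 for Jun, -0.97 for Junb, -0.66 for Jund, -0.93 for Egr1, -1.63 for Egr2, -0.94 for Ier2 and -1.57 for Atf3, and CpG CD103 high over CD103 low was 0.54 for Fos, 0.54 for Fosb, 0.24 for Junb, 0.31 for Jund, 0.57 for Egr1, 1.28 for Egr2, 0.62 for Ier2 and 1.53 for Atf3. With limma voom, CpG CD103 high over CD103 negative was 0.048 for Atf3 and CpG CD103 high over CD103 low was 0.06 for Fosb and 0.019 for Atf3.

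When 1 library at a time was left out with the date kept, and a sign changed, CpG CD103 high over CD103 negative ran from -0.75 to 0.044 for Fos, -0.73 to 0.46 for Fosb, -0.76 to 0.25 for Jund, -0.71 to 0.12 for Egr1, -1.92 to 1.18 for Egr2, -0.075 to 2.24 for Egr3, -0.61 to 0.059 for Ier2 and -0.99 to 1.15 for Atf3. CD103 low over CD103 negative ran from -0.20 to 0.88 for Fos, -0.80 to 0.38 for Fosb, -0.046 to 0.79 for Jun, -0.093 to 0.64 for Junb, -0.45 to 0.75 for Egr1, -0.021 to 0.85 for Ier2 and -0.64 to 0.70 for Atf3. CpG CD103 high over CD103 low ran from -0.64 to 0.55 for Fosb, -1.10 to 0.09 for Egr1, -2.37 to 0.73 for Egr2, -0.71 to 1.60 for Egr3 and -1.17 to 0.96 for Atf3. CD103 negative 2013 over 2012 ran from -1.16 to 0.031 for Fosb and -1.19 to 0.42 for Egr3. Where a group was left with 1 library, that library was assumed to vary like the others. The replicate numbers share a label and no stated animal or day: deviations from group means of libraries with the same number correlated between -0.09 and 0.21, so no pairing was assumed. With 2 or 3 libraries a group, 1 library sets the spread of these genes, and the cause of each change of sign beyond the make-up of the fits was not tested.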
